A study of Mus musculus with 4 samples.

Results

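A set of 10 genes that mark blood vessel endothelium or carry its angiogenic signals was followed in SCC7 tumours after an antibody against CD71. They were taken by name as Pecam1, Cdh5, Cldn5, Emcn, Vwf, Kdr, Flt1, Tek, Angpt2 and Eng, and all 10 were found among the 17574 genes of the data. CD71 is the transferrin receptor, which brings iron into cells. The tumours had been started from SCC7 cells, a murine head and neck squamous carcinoma line labelled WT, placed under the skin of the back of C3H/HeN mice. Tumours of the anti-CD71 group (2 libraries) came from mice given the antibody on days 6 and 9, and those of the control group (2 libraries) had no treatment named in the labels; both groups were taken on day 10. The vessels in such a transplant are those of the host mouse, and every library is bulk RNA of tumour tissue.

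Endothelial cells line blood vessels and are held together by cadherin and claudin junctions. They grow new vessels when vascular endothelial growth factor (VEGF) reaches the receptor kinase made from Kdr. The protein of Flt1 also binds VEGF and largely acts as a trap for it. Angiopoietins act through the receptor Tek, with Angpt2 mostly loosening vessels that another ligand keeps quiet. Endoglin, the product of Eng, helps the receptors that read bone morphogenetic proteins in endothelium.

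Values are TPM, the authors' transcript abundance per length, scaled to 1 total in each library, so levels can be set side by side between genes, but the read depth is unknown. The files of anti-CD71 replicate 2 and of both controls each list 59881 transcripts. That of anti-CD71 replicate 1 could be used for 13586 of them (22.69%), and a transcript beyond its end is missing, not 0. All transcripts of Cdh5, Kdr, Flt1 and Eng are missing there, and those of Pecam1, Tek, Cldn5 and Emcn are listed in part. Whole genes were therefore compared between anti-CD71 replicate 2 and both controls, with that library assumed to vary like the controls, and listed transcripts between 2 libraries a group. The 2 comparisons share the controls and anti-CD71 replicate 2. The labels do not say that replicates are separate animals, so p-values measure the spread between these libraries, and an exact permutation test of 2 against 2 could not go below p = 0.333. Markers of other cells in anti-CD71 replicate 2 differed from the controls: summed macrophage markers were 1937.7 TPM in anti-CD71 replicate 2, against 3674.22 and 4487.5 TPM in the controls, with 7 of 13 called lower and 1 higher. Summed T and natural killer cell markers were 68.26 TPM in anti-CD71 replicate 2, against 265.41 and 257.37 TPM in the controls (6 of 12 tested called lower), and erythroid markers 1006.88 TPM, against 3375.05 and 3748.39 TPM (4 of 5 tested called lower). Summed neutrophil markers were 608.93 TPM in anti-CD71 replicate 2, against 92.82 and 111.96 TPM in the controls (3 of 6 tested called higher). Keratinocyte markers were 128.99 TPM there, against 2.14 and 3.46 TPM (2 of 2 tested called higher, of 14 found). Over the transcripts listed for all 4 libraries, T and natural killer markers summed to 97.15 and 34.55 TPM in anti-CD71 replicates 1 and 2, against 139.81 and 121.69 TPM in the controls, and keratinocyte markers in anti-CD71 replicate 1 lay between the controls. The part of these cells in the values below was not tested except where a measurement is given.

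Most of the endothelial genes lay within or near the control range in anti-CD71 replicate 2. Their TPM summed to 91.51 there, below the 107.21 and 103.49 of the controls, and Pecam1 and Cldn5 made up most of that difference. None of the 9 genes that could be tested passed limma at a Benjamini-Hochberg adjusted p under 0.05, where 2.86% of all 11982 genes tested did; 2 of the 9, Cldn5 and Pecam1, had an unadjusted p under 0.05, where 24.7% of all genes did. The filter of at least 1 TPM in 2 libraries kept out Vwf alone. The median log2 change of the 9 was -0.16 (2 above 0 and 7 below), against -0.008 over all genes tested. Of the 9, 4 lay below both controls and 1 above both, where 42.5% and 39.5% of all genes did, so neither count gives a result about these genes. Fewer endothelial cells and less RNA per cell cannot be told apart in bulk tumour RNA.

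**Figure D1:**
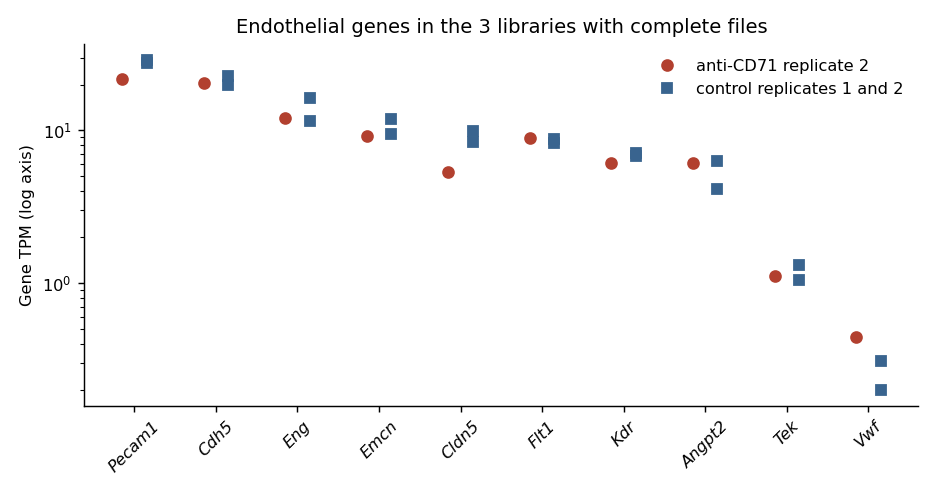
Gene TPM (log axis) of the 10 endothelial genes in anti-CD71 replicate 2 (circles) and in control replicates 1 and 2 (squares), ordered by the control mean. Cldn5 lies farthest below its controls, at 5.32 TPM against 9.98 and 8.4 TPM, and the genes span 2 orders of magnitude, with Vwf under 1 TPM in every library.

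The adhesion and junction genes Pecam1 and Cdh5 had the highest levels. Pecam1 (chr11:106654213-106715281, GRCm38.p6), which encodes the adhesion protein CD31 of endothelial contacts and is also found on platelets and leukocytes, was the highest of the 10. It had 21.66 TPM in anti-CD71 replicate 2, against 27.5 and 28.77 TPM in the controls (28.1 ± 0.9, SD, n = 2). The treated library lay below both controls, with a log2 change of -0.36 (SE 0.093, 95% confidence interval -0.60 to -0.12, limma adjusted p = 0.106). Cdh5 (chr8:104101613-104144504), the VE-cadherin of adherens junctions, is close to confined to endothelium. It stood at 20.53 TPM in anti-CD71 replicate 2, between the controls at 19.92 and 22.67 TPM. Its log2 change was -0.048 (SE 0.12, interval -0.34 to 0.25, limma adjusted p = 0.827), so the VE-cadherin level of the treated library could not be told from the controls.

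Cldn5 (chr16:18776847-18778262) encodes claudin-5, the main claudin of endothelial tight junctions. It had 5.32 TPM in anti-CD71 replicate 2, against 9.98 and 8.4 TPM in the controls (9.19 ± 1.12, SD, n = 2). That is 0.58 of the control mean, the lowest such ratio among the 10. With its 2 annotated copies summed, Cldn5 was at rank 8 of the 10 in the treated library, against rank 5 by the control mean. The log2 change was -0.69 (SE 0.15, interval -1.06 to -0.31), and the limma adjusted p of 0.0785 did not pass; under the alternative settings with a test it ran up to 0.252. The annotation holds 2 copies of this transcript, and each carried the same TPM in every complete library. With 1 copy left out the log2 change was -0.61 (limma adjusted p = 0.12). The copy left had 2.66 TPM in anti-CD71 replicate 2, against 4.99 and 4.2 TPM in the controls, where the Angpt2 mean was 5.22 TPM. By 1 copy Cldn5 was thus at rank 8 in the treated library and by the control mean alike, so the rank shift rests on the sum.

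Emcn (chr3:137341062-137431069), a sialomucin of capillary and venous endothelium, had 9.18 TPM in anti-CD71 replicate 2, against 11.8 and 9.52 TPM in the controls. The treated library was just below the lower control, with a log2 change of -0.19 (SE 0.15, interval -0.58 to 0.21, limma adjusted p = 0.489). Vwf (chr6:125552948-125686679), the clotting factor carrier that endothelium and megakaryocytes store, was the lowest of the 10 in every complete library. It had 0.25 and 0.44 TPM in anti-CD71 replicates 1 and 2, against 0.31 and 0.2 TPM in the controls. The groups overlapped. Without a filter on low values its log2 change was 0.20 in anti-CD71 replicate 2 against the controls (limma adjusted p = 0.354) and 0.10 over all 4 libraries (limma adjusted p = 0.625).

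The VEGF receptors followed. Flt1 (chr5:147561604-147726438) had 8.96 TPM in anti-CD71 replicate 2, against 8.78 and 8.33 TPM in the controls. It was the only tested gene of the 10 above both controls, by a log2 change of 0.060 (SE 0.12, interval -0.24 to 0.36, limma adjusted p = 0.779). Kdr (chr5:75932827-75979072), the receptor that carries most VEGF signalling in endothelium, had 6.13 TPM in anti-CD71 replicate 2, against 7.13 and 6.79 TPM in the controls. The treated library was below both controls, with a log2 change of -0.16 (SE 0.13, interval -0.48 to 0.16, limma adjusted p = 0.477).

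In the angiopoietin pair the ligand was above its receptor in every library where both were whole. Tek (chr4:94739086-94874976), the receptor Tie2, had 1.11 TPM in anti-CD71 replicate 2, between the controls at 1.31 and 1.05 TPM. Its log2 change was -0.044 (SE 0.23, interval -0.64 to 0.55, limma adjusted p = 0.924). Angpt2 (chr8:18690263-18741562), made by activated endothelium and stored for release, has 1 transcript in the files and was listed for all 4 libraries. It had 7.5 and 6.14 TPM in the anti-CD71 libraries, against 4.13 and 6.31 TPM in the controls. The treated libraries were within or above the control range, and the groups overlapped. Over 4 libraries Angpt2 was the only member that both had at least 90% of its TPM listed and passed the filter on low values, and it was not among the 4.35% of 1564 genes called. Its log2 change was 0.35 over 4 libraries (SE 0.20, interval -0.14 to 0.84, limma adjusted p = 0.31) and 0.22 in anti-CD71 replicate 2 alone (SE 0.24, limma adjusted p = 0.599).

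Eng (chr2:32646595-32682669) had 12.04 TPM in anti-CD71 replicate 2, against 16.35 and 11.45 TPM in the controls. In TPM the controls lay further apart than for any other member, with an SD of 3.46 TPM, and the treated library was between them. The log2 change was -0.17 (SE 0.21, interval -0.71 to 0.37, limma adjusted p = 0.646). On that log2 scale the SE of Angpt2, at 0.24, was larger than that of Eng.

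**Figure D2:**
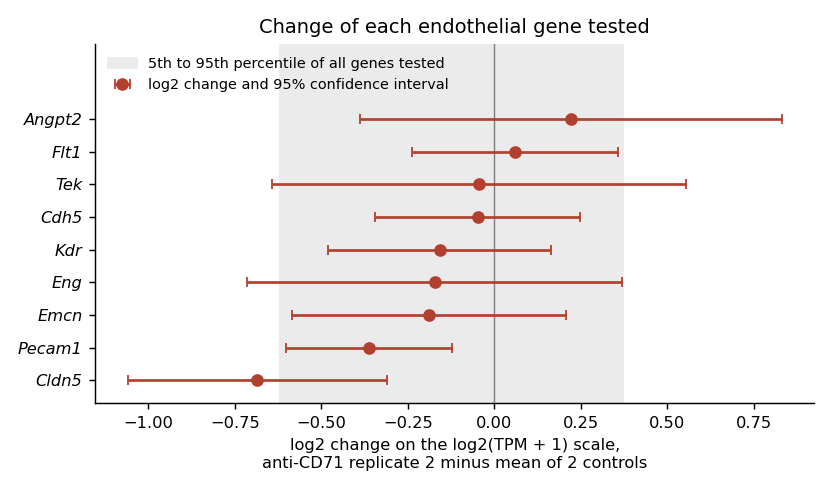
Log2 change on the log2(TPM + 1) scale of the 9 endothelial genes tested, anti-CD71 replicate 2 minus the mean of 2 controls, with 95% confidence intervals from limma; the grey band runs from the 5th to the 95th percentile of all 11982 genes (-0.62 to 0.37). The intervals of Cldn5 and Pecam1 lie below 0, Cldn5 is the only point left of the band, and neither gene passed after adjustment.

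By level the genes fell into steps in the controls. Pecam1 was above Cdh5 in both controls without overlap, and Cdh5 above Eng. The control ranges of Eng and Emcn, of Emcn and Cldn5, and of Cldn5 and Flt1 overlapped, so these neighbours did not differ beyond their spread. The place of Cldn5 here is that of its 2 copies summed. Kdr lay below Flt1 and above Angpt2, and Tek and Vwf came last with no overlap. In anti-CD71 replicate 2 the order was Pecam1, Cdh5, Eng, Emcn, Flt1, Angpt2, Kdr, Cldn5, Tek and Vwf, with Angpt2 and Kdr 0.01 TPM apart.

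Single transcripts gave a view of 4 members in all 4 libraries. None of the 5 member transcripts that passed the filter was called by limma, where 0.0694% of 5765 transcripts were, and 1, of Cldn5, had an unadjusted p under 0.05, where 16.5% did. The transcripts of 2 members, Cldn5 and Pecam1, were below both controls in both anti-CD71 libraries; they were 3 of the 5, where 29.1% of all transcripts were.

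The listed Cldn5 copy had 3.03 and 2.66 TPM in the anti-CD71 libraries, against 4.99 and 4.2 TPM in the controls. The groups did not overlap. The log2 change was -0.54 (SE 0.18, interval -1.01 to -0.07), with limma's adjusted p = 0.27 over all transcripts. Divided by the listed Pecam1 transcripts of the same library it was 0.187 and 0.174 in the anti-CD71 libraries, against 0.264 and 0.23 in the controls. Of the other pan-endothelial genes, 6 had at least 90% of their TPM listed and could also serve as a divisor. For 4 of these 6, Tie1, Sox18, Gpihbp1 and She, the Cldn5 ratio was lower in both anti-CD71 libraries than in either control; for Cd93 and Myct1 the groups overlapped. Over Tie1, an endothelial receptor, it was 0.536 and 0.525 in the anti-CD71 libraries, against 0.868 and 0.706 in the controls. Over Cd93 it was 0.089 and 0.071 in the anti-CD71 libraries, against 0.094 and 0.077 in the controls. Whether Cldn5 stood low within the endothelial genes thus depended on the gene it was set against. All these ratios share the Cldn5 copy, whose groups did not overlap before any division. They are therefore not separate observations, and they have no test. Listed transcripts of the keratinocyte markers summed to 1.56 and 30.32 TPM in the anti-CD71 libraries, against 1.1 and 2.03 TPM in the controls; their part in the Cldn5 values was not tested.

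Pecam1 transcript NM_001032378 had 9.96 and 9.1 TPM in the anti-CD71 libraries, against 12.16 and 11.22 TPM in the controls (log2 change -0.27, SE 0.12, limma adjusted p = 0.349). Transcript NM_008816 had 6.26 and 6.18 TPM in the anti-CD71 libraries, against 6.76 and 7.01 TPM in the controls (log2 change -0.13, SE 0.13, limma adjusted p = 0.667). For neither transcript did the groups overlap, and neither passed. Leukocytes also carry Pecam1, and the listed macrophage transcripts summed to 133.05 and 132.97 TPM in the anti-CD71 libraries, against 229.43 and 264.23 TPM in the controls; their part in the lower Pecam1 was not tested. The minor Emcn transcript NM_016885 had 2.09 and 0.63 TPM in the anti-CD71 libraries, against 1.19 and 0.72 TPM in the controls, and the 2 treated libraries lay on either side of the controls. Tek transcript NM_013690 was listed at 0 in anti-CD71 replicate 1 and had 0.83 TPM in replicate 2, against 0.56 and 0.58 TPM in the controls, and it did not pass the filter.

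**Figure D3:**
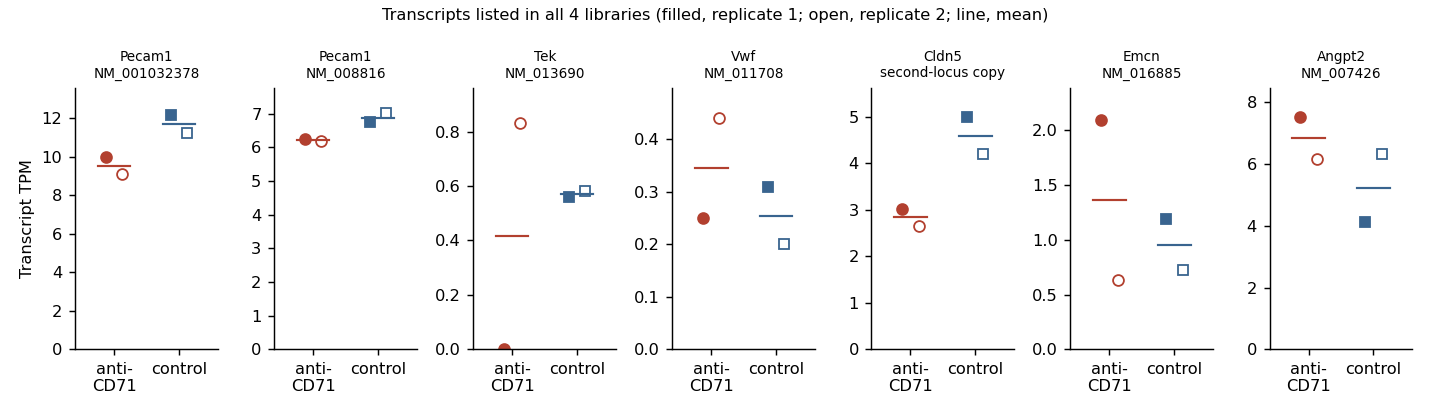
TPM of the 7 transcripts of these genes that are listed in all 4 libraries and above 0 in a control; circles are anti-CD71 and squares control, filled for replicate 1 and open for replicate 2, and lines are group means. Both Pecam1 transcripts and the Cldn5 copy are lower in both anti-CD71 libraries than in either control, while Tek, Vwf, Emcn and Angpt2 overlap.

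Several of these genes make transcripts whose proteins differ in function. The sequences where they differ are shown because reads over them tell a trap from a receptor, or a short tail from a long one. They are coding bases of GENCODE transcripts (GRCm38) linked to the RefSeq identifiers, in the direction of the gene, and capitals mark the bases found in that transcript and not in the one it is compared with; coordinates are those of the capitals, and up to 15 neighbouring bases stand in lower case.
Flt1 NM_001363135, the soluble form, chr5:147639133-147639224, minus strand: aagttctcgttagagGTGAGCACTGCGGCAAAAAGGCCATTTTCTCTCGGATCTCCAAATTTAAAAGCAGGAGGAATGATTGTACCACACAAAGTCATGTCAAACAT
Flt1 NM_010228, the membrane form, first exon past the branch, chr5:147634377-147634523, minus strand: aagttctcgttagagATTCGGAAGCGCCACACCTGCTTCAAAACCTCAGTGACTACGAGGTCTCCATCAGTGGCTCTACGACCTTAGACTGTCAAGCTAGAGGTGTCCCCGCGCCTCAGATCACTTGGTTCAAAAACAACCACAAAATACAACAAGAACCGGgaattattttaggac
Eng NM_001146350, the short tail, chr2:32681298-32681383, plus strand: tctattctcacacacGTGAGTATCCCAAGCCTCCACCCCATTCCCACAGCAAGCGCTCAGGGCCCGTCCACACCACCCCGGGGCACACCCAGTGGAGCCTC
Eng NM_007932, the long tail, chr2:32681437-32681558, plus strand: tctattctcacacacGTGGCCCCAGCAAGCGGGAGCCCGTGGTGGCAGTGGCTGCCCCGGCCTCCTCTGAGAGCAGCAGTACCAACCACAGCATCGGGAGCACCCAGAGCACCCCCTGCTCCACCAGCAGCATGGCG
Pecam1 NM_008816, an exon that NM_001032378 lacks, chr11:106671742-106671798, minus strand: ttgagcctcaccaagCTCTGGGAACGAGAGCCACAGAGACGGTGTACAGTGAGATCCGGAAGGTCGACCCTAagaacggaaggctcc
Pecam1 NM_001305157, a further exon that NM_008816 lacks, chr11:106662002-106662024, minus strand: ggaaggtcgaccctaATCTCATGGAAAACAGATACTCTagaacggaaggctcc
Emcn NM_001163522, an exon that NM_016885 lacks, chr3:137403984-137404022, plus strand: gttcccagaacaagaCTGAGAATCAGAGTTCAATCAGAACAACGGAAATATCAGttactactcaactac

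The soluble Flt1 form shares its start with the membrane form, reads on past the exon end into the 92 unique coding bases shown, and so lacks the membrane span and the kinase; it binds VEGF outside the cell. It had 3.68 TPM in anti-CD71 replicate 2, against 3.44 and 3.94 TPM in the controls. The membrane form had 5.01 TPM in anti-CD71 replicate 2, against 4.66 and 4.02 TPM in the controls. The soluble form made up 41.1% of Flt1 TPM in anti-CD71 replicate 2, between the controls at 39.2% and 47.3%.

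The long Eng form, NM_007932, had 9.85 TPM in anti-CD71 replicate 2, between the controls at 12.8 and 8.6 TPM. The short form, whose cytoplasmic tail ends in a retained intron, had 0.69 TPM in anti-CD71 replicate 2, against 1.36 and 1.09 TPM in the controls. It made up 5.7% of Eng TPM in anti-CD71 replicate 2, below both controls at 8.3% and 9.5%. With 1 complete treated library this difference has no replicate check.

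Pecam1 transcripts differ in the exons of the cytoplasmic tail. The 57-base exon shown holds a tyrosine signalling motif in the protein and is absent from NM_001032378, the leading form, which carried 42.0% of Pecam1 TPM in anti-CD71 replicate 2, against 44.2% and 39.0% in the controls. NM_001305157, with both exons shown, had 4.44 TPM in anti-CD71 replicate 2, against 7.53 and 10.54 TPM in the controls. NM_001305158 had 1.94 TPM in anti-CD71 replicate 2, against 1.05 and 0 TPM in the controls. Much of the lower Pecam1 sum therefore lies in NM_001305157, the form not listed for anti-CD71 replicate 1. How the unknown program shared reads among transcripts this alike was not tested. Emcn was carried by NM_001163522, at 88.2% of its TPM in anti-CD71 replicate 2, against 81.2% and 87.7% in the controls, and Kdr by NM_010612 alone.

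**Figure D4:**
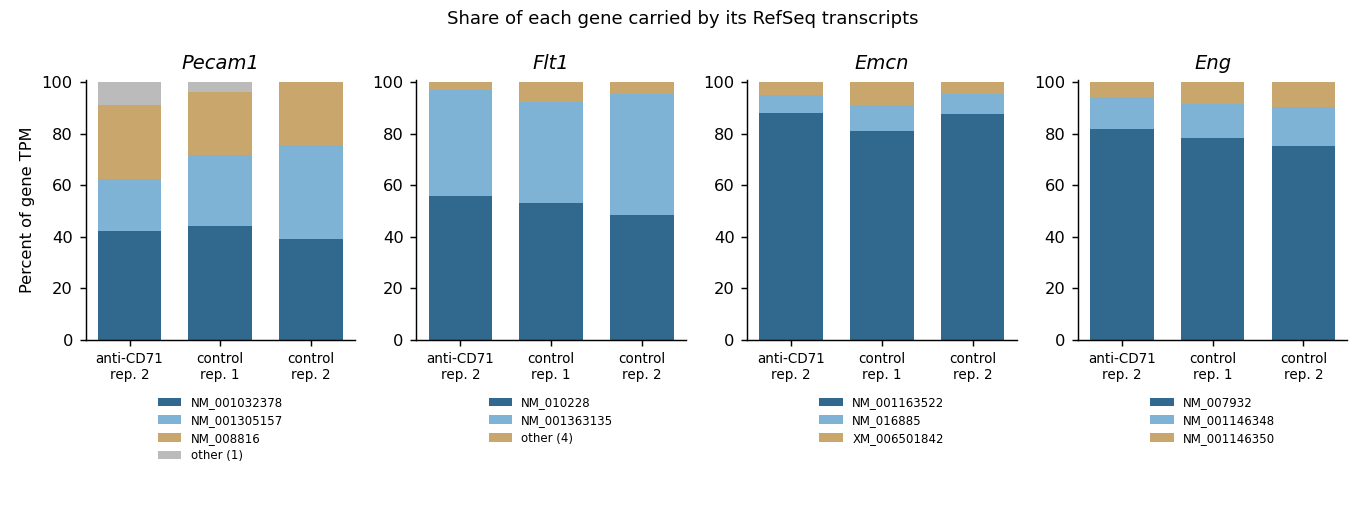
Percent of gene TPM carried by the RefSeq transcripts of Pecam1, Flt1, Emcn and Eng in anti-CD71 replicate 2 and control replicates 1 and 2 (left to right); colours stand for the transcripts named under each panel. Soluble Flt1 is 41.1% of the gene in anti-CD71 replicate 2, against 39.2% and 47.3% in the controls, and NM_001305157 is 20.5% of Pecam1 in anti-CD71 replicate 2, against 27.4% and 36.6% in the controls.

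Promoter windows from 250 bases before the start to 50 after it were read for Eng, Emcn, Tek, Kdr, Flt1 and Cldn5 from RefSeq (GRCm38.p6). They were searched on both strands for ACAGGAA (which ETS factors such as Erg bind), for AGATAA (which haematopoietic and vessel factors named after it bind), for TGANTCA (the AP-1 site) and for ACGTG (the core of the hypoxia response element). ACAGGAA was in the window of Emcn only, where 8.7% of 32851 promoters hold it, and AGATAA in that of Tek only, where 11.2% do. TGANTCA (7.8% of promoters) and ACGTG (19.6%) were in none of the 6 windows. The windows of Emcn, which holds the ETS core 2 times (as TTCCTGT, in capitals), and of Cldn5, the gene farthest below its controls, are given; the searched letters are not in the Cldn5 window.
Emcn, chr3:137340828-137341127, plus strand: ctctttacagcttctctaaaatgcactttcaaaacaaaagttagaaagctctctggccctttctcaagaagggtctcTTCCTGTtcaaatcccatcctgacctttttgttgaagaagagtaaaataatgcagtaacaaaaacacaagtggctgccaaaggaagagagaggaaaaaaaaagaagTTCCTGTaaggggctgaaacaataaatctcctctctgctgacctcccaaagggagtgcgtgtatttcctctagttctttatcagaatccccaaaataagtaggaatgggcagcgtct
Cldn5, chr16:18776597-18776896, plus strand: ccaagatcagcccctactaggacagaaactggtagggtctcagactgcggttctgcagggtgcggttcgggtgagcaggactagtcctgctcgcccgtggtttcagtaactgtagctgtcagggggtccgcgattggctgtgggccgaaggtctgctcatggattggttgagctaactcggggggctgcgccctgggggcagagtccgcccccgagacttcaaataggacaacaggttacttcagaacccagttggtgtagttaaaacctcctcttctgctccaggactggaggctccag

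Other genes of the endothelium were also seldom called, as were genes at large. In anti-CD71 replicate 2 against controls 2.86% of all 11982 genes tested were called, and over 4 libraries 4.35% of 1564. The lists here and below are short, so their counts of calls beside these shares give no result about them. Of 30 further pan-endothelial genes 27 could be tested between anti-CD71 replicate 2 and the controls, and 1 was called, lower: Gpihbp1, which carries lipoprotein lipase across capillary endothelium. It had 23.06 TPM in anti-CD71 replicate 2, against 37.19 and 36.8 TPM in the controls (log2 change -0.66, SE 0.088, limma adjusted p = 0.0373). Its call rests on that library: over all 4 libraries the log2 change was -0.35 (limma adjusted p = 0.278), with 33.66 TPM listed for anti-CD71 replicate 1. The median over the 27 was -0.09, with 6 above 0 and 21 below. Over 4 libraries 5 of the 30 could be tested and 1 was called, Cd93, a receptor of endothelium and of myeloid cells. It fell to 33.91 and 37.48 TPM in the anti-CD71 libraries, against 53.1 and 54.3 TPM in the controls (log2 change -0.58, SE 0.081, limma adjusted p = 0.0386), beside the lower macrophage markers above.

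Among 13 VEGF and angiopoietin ligands and co-receptors 11 were tested, and 1 was called. Angptl4, a lipase inhibitor that hypoxia and fatty acid signals induce, rose to 73.72 TPM in anti-CD71 replicate 2, against 36.58 and 34.4 TPM in the controls (log2 change 1.03, SE 0.090, limma adjusted p = 0.0206). Vegfa, the main ligand of Kdr and Flt1, had 94.14 TPM in anti-CD71 replicate 2, against 117.06 and 135.61 TPM in the controls, and did not pass (log2 change -0.42, limma adjusted p = 0.109). Nrp2, a VEGF co-receptor, had 70.27 TPM in anti-CD71 replicate 2, against 91.44 and 84.55 TPM in the controls (log2 change -0.32, limma adjusted p = 0.12). The list's median was -0.16. No Angptl4 transcript is listed for anti-CD71 replicate 1, so its call rests on 1 treated library. Summed adipocyte markers in anti-CD71 replicate 2 were 153.99 TPM, against 106.61 and 136.18 TPM in the controls. Of 4 tested, 3 had a log2 change above 0 and 1 below, with Cfd at 15.32 TPM, against 1.9 and 0.99 TPM. Their part in the Angptl4 level was not tested.

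No gene was called among 14 tip cell and sprouting genes (14 tested, median -0.24), 11 genes of activated endothelium (7 tested, median -0.15), 18 of endoglin and BMP receptor signalling (13 tested, median -0.11) or 13 of Notch signalling in vessels (10 tested, median -0.19). Vcam1, an adhesion molecule of inflamed endothelium, was at 123.59 TPM in anti-CD71 replicate 2, against 127.02 and 133.92 TPM in the controls. Id3, a target of the receptors that endoglin assists, was at 115.27 TPM in anti-CD71 replicate 2, against 187.28 and 248.16 TPM in the controls, and missed the threshold (log2 change -0.90, limma adjusted p = 0.067). Id1, of the same list as Id3, had 51.86 TPM in anti-CD71 replicate 2, between the controls at 50.51 and 66.63 TPM (log2 change -0.16). Id2 of that list had 36.52 TPM there, against 36.71 and 39 TPM in the controls (log2 change -0.05). The lists of pericytes (11 of 13 tested, median -0.16), lymphatic endothelium (3 of 7 tested, median 0.43) and platelets (3 of 10 tested, median -0.18) also held no call. In the same comparison 2.86% of all genes tested were called. The lymphatic transcription factor Prox1 was at 0.04 TPM or less in the complete libraries. Of 12 hypoxia response genes tested 1 was called in anti-CD71 replicate 2, Angptl4 again; over 4 libraries 1 of 3 was, Adm, the vessel peptide adrenomedullin, with 45.63 and 44.41 TPM in anti-CD71 replicates 1 and 2, against 18.96 and 26.26 TPM in the controls (log2 change 0.98, SE 0.15, limma adjusted p = 0.0386).

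**Figure D5:**
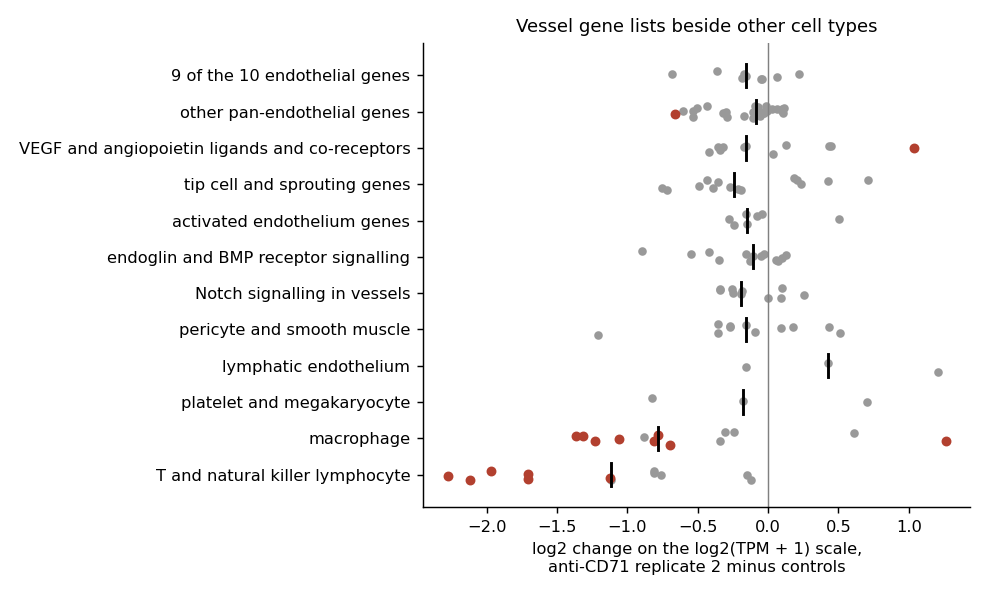
Log2 change on the log2(TPM + 1) scale, anti-CD71 replicate 2 minus controls, of each tested gene of 12 lists; points are genes, red where limma's adjusted p is under 0.05, and black bars are list medians. The medians of the vessel lists lie between -0.24 and -0.09, apart from lymphatic endothelium at 0.43 (3 genes tested). These lists hold 2 red points in all, Gpihbp1 and Angptl4. The macrophage and the T and natural killer lists lie lower, with medians of -0.79 and -1.12.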

How the data were processed

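Tumour RNA for 2 anti-CD71 and 2 control libraries was extracted with TRIZOL and made into libraries by BGI, per the labels' protocols. The authors deposited TPM per RefSeq transcript to the nearest hundredth; the submitters' processing notes name GRCm38.p6 as the build. Which aligner and quantifier were run is not given in the sources used here. Read depth cannot be had from TPM, and no counting interval is given.

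A RefSeq gene table (GRCm38.p6) gave symbols to 58425 of 59881 transcripts. Gene TPM is the sum over transcripts, with 1744 copies at a second locus counted to their gene. The last line of the anti-CD71 replicate 1 file broke off and was not used. limma 3.58.1 in R 4.3.3, with an intensity trend, compared log2(TPM + 1), two-sided, for features of at least 1 TPM in 2 or more libraries, with Benjamini-Hochberg adjustment over all features tested and a threshold of 0.05; changes are on that scale, which understates those of low genes. In the comparison of 4 libraries a gene entered where listed transcripts carried at least 90% of its TPM. The SD of the log2 difference between libraries was 0.294 for anti-CD71 and 0.222 for control. The scripts were tested on simulated data. Alternatives covered pseudocount, filter, scaling, variance trend, left-out libraries, a replicate block, the listed share, second-locus copies, curated transcripts and epidermal genes. By rule, all members were named, and of other lists the called genes and the 3 with the highest mean TPM, some of them given. Tie1, Sox18, She, Myct1, Prox1, Rgs5, Id2, Selp, Ackr1 and Edn1 were added later, outside that rule. Members and lists were chosen with earlier results of these data known.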

Additional observations from a re-analysis of the deposited data

How the results depend on the processing

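Under every alternative with a test, no member and no member transcript was called. Where no feature at all was called, as given below, no member could be, so those alternatives give no check. Without control replicate 1, a comparison of 1 library with 1 and so a value with no test, the log2 change of anti-CD71 replicate 2 was -0.034 for Angpt2, 0.067 for Eng, 0.042 for Tek and -0.137 for Cdh5; without control replicate 2 it was 0.477, -0.412, -0.131 and 0.041 for these genes. The direction of each of the 4 thus turns with the control used. Cldn5 stayed below 0 under all alternatives, between -0.80 and -0.57 in anti-CD71 replicate 2 against controls and between -0.67 and -0.44 for its transcript over 4 libraries, where the log2 changes without 1 library were -0.64 to -0.44. The median of members over 4 libraries was -0.225 with at least 50% of TPM listed (3 members), against 0.35 for Angpt2 alone, since Cldn5 and Pecam1 then enter.

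The number of genes called overall moved. For anti-CD71 replicate 2 against controls, 343 became 0 with no filter on low values (limma; 3401 at an unadjusted p under 0.05), 110 with a mean of at least 1 TPM (79 higher and 31 lower, against 57 and 286), 225 with median scaling and 35 with no intensity trend. Over 4 libraries, 68 became 1 with no filter, 18 with a mean of at least 1 TPM, 4 with no intensity trend and 4 with any listed transcript, and 1 to 97 without 1 library; median scaling gave 21 higher and 36 lower, against 14 and 54. For transcripts, 4 became 0 with a pseudocount of 0.1 or no filter (905 and 1330 at an unadjusted p under 0.05), and 0 to 1 without 1 library. The cause of these moves was not tested.

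Over genes, the difference between the 2 anti-CD71 libraries did not follow that between the 2 controls (correlation -0.006). With 2 libraries a group this cannot show whether libraries of the same replicate number were paired. With the replicate block, 3 genes and 0 transcripts were called, and Angpt2 had a log2 change of 0.35 (limma adjusted p = 0.358) and the Cldn5 transcript -0.54 (limma adjusted p = 0.325). No paired analysis of anti-CD71 replicate 2 alone was possible because it shares 1 number with the controls. The precision of members at about 1 TPM or less, Tek and Vwf, is limited by a depth that is unknown.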

Other observations

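Cd34, named for progenitor and endothelial cells, was at 902.17 TPM in anti-CD71 replicate 2, against 962.78 and 877.36 TPM in the controls, far above Pecam1 at 21.66 TPM, against 27.5 and 28.77 TPM. Its log2 change was -0.027 (SE 0.076, limma adjusted p = 0.851), and which cells of the tumour carried it was not measured.

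A few genes of activated or venular endothelium, too low for the filter, were above both controls in anti-CD71 replicate 2. They were picked after their values were seen and have no test. Selp, the P-selectin that is also stored in platelets, had 0.84 TPM in anti-CD71 replicate 2, against 0.3 and 0.13 TPM in the controls. Ackr1, a chemokine receptor of venules, had 0.67 TPM in anti-CD71 replicate 2, against 0.14 and 0.29 TPM in the controls. Edn1, the vessel constricting peptide endothelin-1, had 1.84 TPM in anti-CD71 replicate 2, against 0.94 and 0.7 TPM in the controls. Vwf, which belongs to the same stored granules as P-selectin, was also above both controls there and not in anti-CD71 replicate 1, at 0.25 TPM.

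Pdgfrb, the pericyte receptor for a growth factor of endothelium, had 12.06 TPM in anti-CD71 replicate 2, against 24.19 and 35.18 TPM in the controls (log2 change -1.21, SE 0.22, limma adjusted p = 0.0628), while the pericyte gene Rgs5 had 9.42 TPM, against 8.15 and 8.28 TPM. Pdgfra, of the fibroblast list, had 59.49 TPM there, against 94.35 and 92.81 TPM in the controls. Of 10 fibroblast genes tested 3 had a log2 change above 0 and 7 below. Which cells carried Pdgfrb was not measured. Lyve1, a gene of lymphatic endothelium and of some macrophages, had 43.78 TPM in anti-CD71 replicate 2, against 14.59 and 23.15 TPM in the controls (log2 change 1.21, SE 0.26, limma adjusted p = 0.0801).

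Of 1442 transcripts with a copy at a second locus in the annotation, 796 carried the same TPM as their first copy in all 3 complete libraries, as Cldn5 did. For such genes a level summed over copies and the level of 1 copy differ, which bears on any ranking of Cldn5 among the endothelial genes.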
